A study of Mus musculus with 12 samples.

Results

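Transcripts of the colony-stimulating factors, of the interleukin 6 (IL-6) family cytokines and of their receptors and signal carriers were followed across 4 groups of 4T1, a mouse line from a mammary carcinoma known to metastasise to lung. The genes were taken from the count table by symbol. They were 10 of 22880 features: the ligand genes Csf1, Csf2, Csf3, Lif and Il6, the receptor genes Lifr, Il6st and Osmr, the transcription factor gene Stat3 and the feedback inhibitor gene Socs3. RNA sequencing covered 3 libraries in each group. The mock cells carried the empty plasmid pcDNA3.1 and the MYBup cells pcDNA3-mMyb, a plasmid with mouse Myb, which encodes the transcription factor c-Myb. Neither wt nor lung3 cells were transfected, and lung3 cells had gone through the lung in 3 passages. Lung metastatic activity is given as low for MYBup, high for lung3 and normal for the other groups. Whether the transfected lines are pools or single clones is not stated, so an effect of Myb cannot be told apart from a difference between lines. Separate cultures for the 3 libraries of a group are not stated either, and p-values then measure only the spread among those libraries, which can be technical.

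Levels are given in CPM, counts scaled to a common library size with TMM factors, and library totals ran from 8912989 to 24745660 counts. Differences are log2 fold changes from edgeR's quasi-likelihood test, and a gene is called when its adjusted p is under 0.05 over all 11291 tested genes. Of the 10 genes 9 passed the filter on low counts, which asks for about 10 counts in at least 3 libraries. Il6 did not pass, and Csf2 passed through mock and lung3, the groups in which it was high. Myb, with plasmid and own transcripts in 1 row, was at 5.49 ± 1.19 CPM in mock and at 40.7 ± 1.94 in MYBup (SD, n = 3). Of 8 epithelial markers 7 were tested, and their sum lay between 2499 and 3349 CPM in the 12 libraries, with Krt8 and Krt18 high and Krt5 at 0 in 3 groups. The sum was carried by keratins, and single markers moved otherwise: in mock against wt Cldn7 (log2 fold change -2.62), Krt14 (-2.04), Cdh1 (-0.80) and Epcam (-0.35) fell while Krt8 (0.44) and Krt18 (0.35) rose, and Krt14 rose in MYBup against mock (2.19) and in lung3 against wt (2.21). The summed level of 13 leukocyte markers, of which Cd68 alone was tested and Adgre1, Cd3e, Tyrobp and Csf3r had 0 counts, was 8.43 to 8.59 CPM in lung3, 4.87 to 6.52 in wt, 3.99 to 6.77 in mock and 3.62 to 4.64 in MYBup. The summed level of 6 fibroblast markers, of which Pdgfra alone was tested, was 36.9 to 49.0 CPM in mock, 38.7 to 48.6 in MYBup, 21.8 to 30.3 in wt and 15.9 to 21.6 in lung3. In bulk RNA, fewer cells of a type and less RNA per cell cannot be told apart. Endothelial and lung epithelial marker sums were at most 0.496 and 0.208 CPM, with Sftpc and Sftpb at 0. Some libraries stood apart from their group: mock replicate 3 and lung3 replicate 3 were low in Csf3, and wt replicate 3 was high in Csf2. Values without these libraries stand beside the calls they change, singly or as a range.

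Colony-stimulating factors are secreted proteins that drive the growth and maturation of myeloid cells. Csf1 encodes M-CSF, which acts on monocytes and macrophages, Csf2 encodes GM-CSF, and Csf3 encodes G-CSF, which releases neutrophils from the bone marrow and is known to be made by 4T1 tumours. Cytokines of the IL-6 family share the receptor chain gp130, encoded by Il6st. Leukaemia inhibitory factor, the product of Lif, binds the chain encoded by Lifr together with gp130, and oncostatin M binds the chain encoded by Osmr together with gp130. These receptors activate Janus kinases, which phosphorylate STAT3, and STAT3 induces Socs3, whose product blocks the receptor complex.

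The 250 bases before the RefSeq start (GRCm38.p6) are shown for Lif and Lifr, which moved in opposite directions in MYBup cells, for Csf1, which was higher in both MYBup and lung3, and for Socs3, the STAT3 feedback gene. Of the 10 genes 9 had an entry; Csf3 had none. Capitals mark matches, on either strand, to TTCNNNGAA (STAT), GGG and TTCC with any 3 bases between them (NF-kB), TGANTCA (AP-1), AACNG (the c-Myb core) or GAGATTCC (a shared cytokine promoter element).
Lif, chr11:4257318-4257567, plus strand: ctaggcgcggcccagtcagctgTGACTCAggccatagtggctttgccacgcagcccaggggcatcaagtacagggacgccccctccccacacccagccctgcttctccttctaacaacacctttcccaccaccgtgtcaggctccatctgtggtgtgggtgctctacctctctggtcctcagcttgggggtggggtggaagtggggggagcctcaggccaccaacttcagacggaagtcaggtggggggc
Lifr, chr15:7129322-7129571, plus strand: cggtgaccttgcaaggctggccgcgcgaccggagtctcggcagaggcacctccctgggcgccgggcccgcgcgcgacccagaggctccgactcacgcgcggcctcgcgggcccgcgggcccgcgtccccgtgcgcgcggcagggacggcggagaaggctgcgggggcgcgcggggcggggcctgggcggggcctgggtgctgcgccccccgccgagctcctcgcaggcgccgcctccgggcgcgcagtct
Csf1, chr3:107760470-107760719, minus strand: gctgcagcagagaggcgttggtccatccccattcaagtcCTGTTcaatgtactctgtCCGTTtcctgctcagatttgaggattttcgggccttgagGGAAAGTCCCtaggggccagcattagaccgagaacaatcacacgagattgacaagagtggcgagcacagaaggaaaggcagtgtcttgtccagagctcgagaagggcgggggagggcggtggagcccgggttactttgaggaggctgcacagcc
Socs3, chr11:117969367-117969616, minus strand: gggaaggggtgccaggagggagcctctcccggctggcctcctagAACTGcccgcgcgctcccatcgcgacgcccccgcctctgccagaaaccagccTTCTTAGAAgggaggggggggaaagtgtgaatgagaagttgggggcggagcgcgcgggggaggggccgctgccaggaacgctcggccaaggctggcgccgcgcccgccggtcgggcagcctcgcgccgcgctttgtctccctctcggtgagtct
The Lif window held 1 AP-1 match and no c-Myb core, and this Lifr window held no match to any of the 5 motifs. Csf1 had 1 NF-kB match and 2 c-Myb cores, and Socs3 had 1 STAT match and 1 c-Myb core. Among 32841 promoter windows of this length, 6.75% held the AP-1 motif, 4.65% the NF-kB motif, 7.02% the STAT motif, 74.2% the c-Myb core and 0.755% the cytokine element. The c-Myb core is thus found in most windows. A match is a run of letters and not a measured binding site.

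Between MYBup and mock cells, which differ in the Myb insert of the plasmid, transcripts of 3 of the ligand genes fell and those of Csf1 and Lifr rose. Csf3 was 4.23-fold and Lif 2.26-fold lower in MYBup, Csf2 was lower at counts near the filter, Lifr was 4.81-fold higher and Csf1 1.59-fold higher. Of the 9 tested genes 3 rose (Csf1, Lifr and Stat3) and 3 fell (Csf2, Csf3 and Lif). In this comparison 14.3% of all tested genes rose and 12.6% fell, or 26.9% in either direction. The median log2 fold change of the 9 was 0.12, beside 0.0015 over all tested genes.

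Between lung3 and wt cells, which differ in passage through the lung, Csf3 was 2.96-fold, Lif 1.57-fold and Csf1 1.46-fold higher in lung3. Of the 9 tested genes these 3 rose and 0 fell, where 2.91% of all tested genes rose and 2.44% fell (5.36% in either direction). The median log2 fold change of the 9 was 0.37, beside 0.0010 over all tested genes. Without wt replicate 2 the count was 1 (Csf1). Blocked by replicate number, it was 3 over all 12 libraries and 4 on the 6 libraries of this comparison, where Csf2 was gained. The leukocyte marker sum was higher in lung3 than in wt. It was carried by Cd68, at 7.71 ± 0.437 CPM in lung3 and 5.20 ± 0.787 in wt (log2 fold change 0.57, edgeR adjusted p = 0.129), with Ptprc at 0.231 and 0.120 CPM and Adgre1 at 0. Its part in these differences was not tested. Csf3 and Lif were thus lower in MYBup than in mock and higher in lung3 than in wt, in 2 comparisons that share no library, and Csf1 was higher in both.

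**Figure D1:**
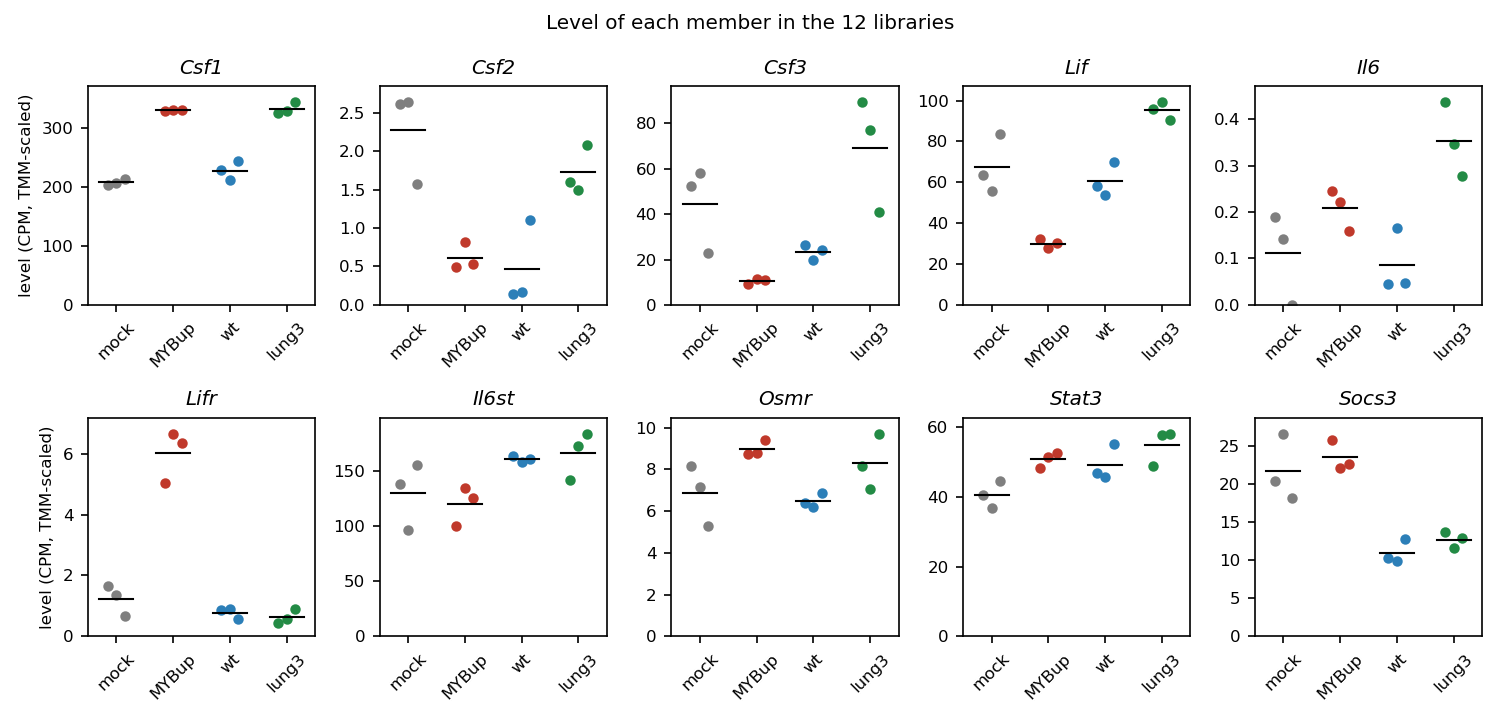
Level of each of the 10 genes in CPM (vertical axes, linear from 0) in the 12 libraries by group. Points are libraries and black lines are group means. The MYBup libraries are the lowest for Csf3 and Lif, at 9.04 to 11.3 and 27.8 to 32.0 CPM, and the highest for Lifr, at 5.05 to 6.65 CPM.

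Csf3 (ENSMUSG00000038067, chromosome 11, 98701263 to 98703629, plus strand, GRCm38) encodes G-CSF. Its level was 52.3, 58.3 and 22.9 CPM in mock replicates 1 to 3 and 9.04, 11.3 and 11.1 in MYBup. In wt it was 26.4, 19.6 and 24.1 CPM and in lung3 89.3, 77.1 and 41.1 CPM. Every MYBup library was below every other library, and every lung3 library was above every wt library. The lung3 and mock groups overlapped, and so did mock and wt, through mock replicate 3.

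The Csf3 log2 fold change was -2.08 in MYBup against mock (SE 0.33, edgeR adjusted p = 0.000586) and 1.56 in lung3 against wt (SE 0.31, adjusted p = 0.0109). Without mock replicate 3 and lung3 replicate 3 these were -2.39 and 1.84. Those libraries were singled out for their low Csf3, so the wider differences follow from that choice and are no support. The lung3 call ended without wt replicate 2 (adjusted p = 0.0545), and in the 6-library fit blocked by replicate number it held (1.51, adjusted p = 3.95e-06). In order, the group means were 69.2 ± 25.1 CPM in lung3, 44.5 ± 18.9 in mock, 23.4 ± 3.45 in wt and 10.5 ± 1.25 in MYBup. Lung3 and mock, neighbours in this order, did not differ beyond their spread (adjusted p = 0.103). Mock exceeded wt by 0.93 on the log2 scale (adjusted p = 0.0302), a call that ended without mock replicate 1 or 2 or any of the wt libraries (adjusted p of up to 0.106). Without mock replicate 3 the difference was 1.24, wider by the same choice. MYBup was below wt (-1.15, adjusted p = 0.0162), and this call ended without MYBup replicate 1 (adjusted p = 0.0527) or wt replicate 1 (0.0504).

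Csf1 (ENSMUSG00000014599, chromosome 3, 107741048 to 107760469, minus strand) encodes M-CSF and was the member with the highest level per length. It stood at 203, 206 and 214 CPM in mock, 328, 330.5 and 330.3 in MYBup, 229, 211 and 243 in wt and 325, 328 and 343 in lung3. The 6 MYBup and lung3 libraries lay above all 6 mock and wt libraries. The log2 fold change was 0.67 in MYBup against mock (SE 0.07, adjusted p = 1.87e-05), 0.54 in MYBup against wt (adjusted p = 6.7e-05) and 0.55 in lung3 against wt (SE 0.07, adjusted p = 0.00066). All 3 differences were called in each of 20 other settings and left-out libraries. Lung3 and MYBup, at 332 ± 9.64 and 330 ± 1.35 CPM, had a log2 difference of 0.011 (SE 0.07, adjusted p = 0.904), and wt and mock were not told apart either (adjusted p = 0.143).

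Csf2 (ENSMUSG00000018916, chromosome 11, 54247271 to 54249667, minus strand) encodes GM-CSF and was low throughout. Its counts were 55, 37 and 24 in mock, 6, 11 and 10 in MYBup, 3, 4 and 23 in wt and 22, 13 and 30 in lung3. These corresponded to 2.27 ± 0.609 CPM in mock, 1.73 ± 0.309 in lung3, 0.612 ± 0.176 in MYBup and 0.468 ± 0.550 in wt. Csf2 was thus in the higher pair of groups in mock and lung3 and in the lower pair in MYBup and wt, and wt replicate 3, at 1.10 CPM, lay far above 0.136 and 0.165 CPM in the other two.

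Csf2 fell in MYBup against mock, by 1.90 on the log2 scale (SE 0.52, adjusted p = 0.0165), a call that ended without mock replicate 1 (adjusted p = 0.0618) or MYBup replicate 3 (0.0725). In mock against wt it was 2.32 (SE 0.50, adjusted p = 0.00319), and 3.85 without wt replicate 3. In lung3 against wt it was 1.94 and not called (SE 0.54, adjusted p = 0.0568). In a fit of these 6 libraries blocked by replicate number it was 1.94 and called (adjusted p = 0.00578). In the reported fit without wt replicate 3 it was 3.47. That library was singled out for its high Csf2, so wider gaps to wt without it follow from the choice and are no support. The block over 12 libraries did not call it (1.95, adjusted p = 0.0743), without wt replicate 1 or 2 it was 1.51 (adjusted p = 0.203 and 0.176), and 14 of 20 settings in all did not call it. Of the neighbours in the order of levels, lung3 exceeded MYBup (log2 fold change 1.52, adjusted p = 0.0381), while mock and lung3 (adjusted p = 0.515) and MYBup and wt (0.42, adjusted p = 0.633) were not told apart. Without wt replicate 3, MYBup exceeded wt by 1.95 and was called, which the same choice favours. Exons of Csf2 share 96 bases with the antisense gene Gm12223, and whether counting used strand is not given in the sources used here, so reads of the pair cannot be told apart.

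Lif (ENSMUSG00000034394, chromosome 11, 4257557 to 4272514, plus strand), the gene of leukaemia inhibitory factor, followed the same order as Csf3. Its level was 63.6, 55.9 and 83.4 CPM in mock and 32.0, 27.8 and 30.2 in MYBup. It was 58.2, 53.9 and 69.8 CPM in wt and 96.0, 99.2 and 90.3 in lung3. MYBup libraries were the lowest and lung3 libraries the highest of the 12, with no overlap, and mock and wt overlapped. In mock replicate 3, where Csf3 was low, Lif was the highest of its group.

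The log2 fold change of Lif was -1.17 in MYBup against mock (SE 0.14, adjusted p = 5.85e-05) and -1.02 in MYBup against wt (adjusted p = 0.000115), and both were called in all 20 other settings. In lung3 against wt it was 0.65 (SE 0.13, adjusted p = 0.0128), but the call ended without wt replicate 1, wt replicate 2 or lung3 replicate 2 (adjusted p = 0.0645, 0.0694 and 0.0546). In the 6-library fit blocked by replicate number it held (0.65, adjusted p = 6.27e-05). Lung3 also exceeded mock, its neighbour in the order (0.49, adjusted p = 0.00859). Mock and wt were not told apart (0.16, adjusted p = 0.374), and without mock replicate 3 this value was -0.021.

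Il6 (ENSMUSG00000025746, chromosome 5, 30013114 to 30019981, plus strand), which gives the family its name, was nearly silent. Its counts were 4, 2 and 0 in mock, 3, 3 and 3 in MYBup, 1, 4 and 1 in wt and 6, 3 and 4 in lung3. No library held more than 6 counts, so the gene was not tested. The lung3 sum of 13 against 6 in wt gives a ratio of 3.90 scaled to depth, with an exact 95% interval from 1.38 to 12.5 that covers counting error only. The ratio of MYBup to mock was 1.72 (interval 0.547 to 5.87), which spans 1, and that of lung3 to mock was 2.90 (1.03 to 9.29).

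**Figure D2:**
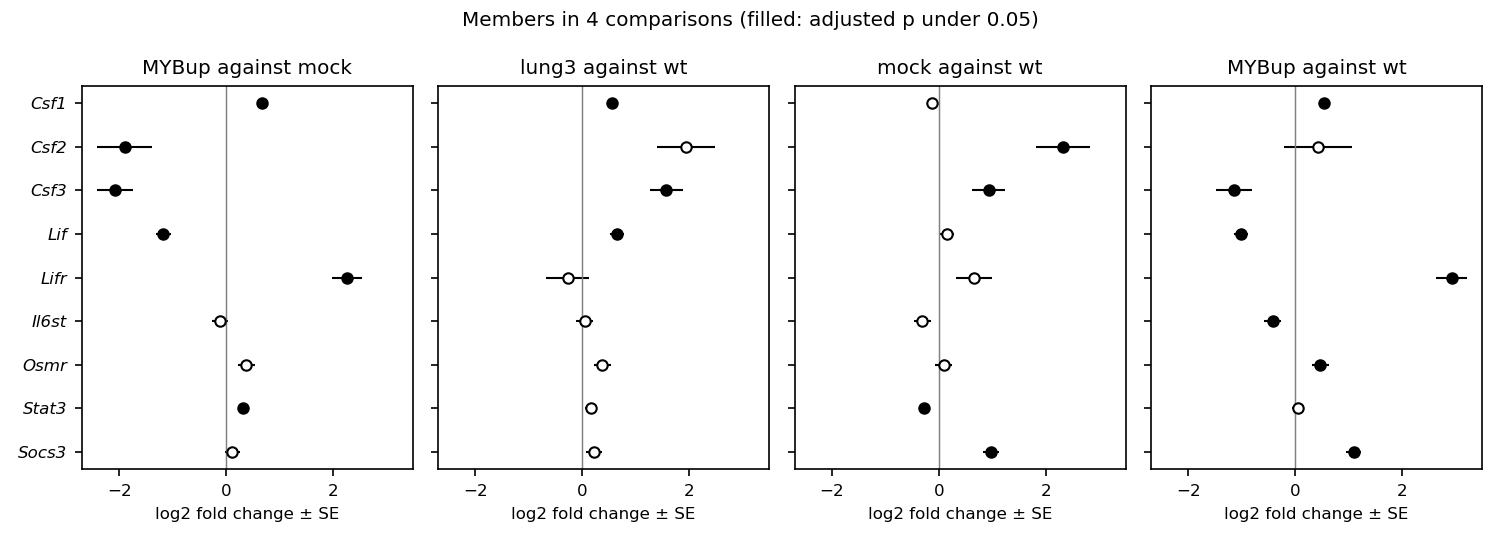
Log2 fold change with its standard error (horizontal axes) for the 9 tested genes in 4 comparisons, filled where the adjusted p is under 0.05. The mock libraries enter the first and the third panel, the MYBup libraries the first and the last, and the wt libraries all panels but the first. Csf3 and Lif lie at -2.08 and -1.17 in MYBup against mock and at 1.56 and 0.65 in lung3 against wt, and Lifr lies at 2.26 and -0.28.

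Lifr (ENSMUSG00000054263, chromosome 15, 7090614 to 7197489, plus strand) encodes the specific chain of the leukaemia inhibitory factor receptor. Its level was 1.66, 1.35 and 0.654 CPM in mock, 5.05, 6.65 and 6.35 in MYBup, 0.863, 0.909 and 0.575 in wt and 0.437, 0.577 and 0.901 in lung3. The 3 MYBup libraries stood clear of all others, and the other groups overlapped. The log2 fold change was 2.26 in MYBup against mock (SE 0.28, adjusted p = 8.93e-05) and 2.93 against wt (SE 0.29, adjusted p = 9.37e-06), and both were called in all 20 other settings. After MYBup at 6.02 ± 0.851 CPM came mock (1.22 ± 0.516), wt (0.783 ± 0.181) and lung3 (0.638 ± 0.238). Mock and wt (0.66, adjusted p = 0.143) and wt and lung3 (adjusted p = 0.761) were not told apart, but without mock replicate 3 mock exceeded wt by 0.95 and was called (adjusted p = 0.0277). In MYBup the receptor gene was thus high and its ligand gene Lif low.

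Il6st (ENSMUSG00000021756, chromosome 13, 112464070 to 112510086, plus strand), the gene of the shared chain gp130, was abundant and varied little between groups. It was at 139, 96.6 and 156 CPM in mock, 101, 135 and 126 in MYBup, 164, 159 and 161 in wt and 142, 173 and 184 in lung3. It was not called in MYBup against mock (-0.11, adjusted p = 0.627) or in lung3 against wt (0.04, SE 0.15, adjusted p = 0.911). MYBup was below wt (-0.42, SE 0.15, adjusted p = 0.0460), a call that 8 of 12 left-out libraries ended (adjusted p of up to 0.165). No neighbours in the order lung3, wt, mock and MYBup were told apart, with adjusted p of 0.911, 0.138 and 0.627. Without mock replicate 3, mock was below wt (-0.45, adjusted p = 0.0388) where it was at -0.31 with it.

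Osmr (ENSMUSG00000022146, chromosome 15, 6813577 to 6874969, minus strand), the oncostatin M receptor gene, stood at 8.97 ± 0.365 CPM in MYBup, 8.30 ± 1.34 in lung3, 6.86 ± 1.45 in mock and 6.49 ± 0.338 in wt. Its libraries were at 8.72, 8.80 and 9.39 CPM in MYBup and at 8.15, 7.04 and 9.70 in lung3. In mock they were at 8.16, 7.13 and 5.30 CPM and in wt at 6.41, 6.20 and 6.86 CPM. The log2 fold change was 0.38 in MYBup against mock (adjusted p = 0.0949) and 0.37 in lung3 against wt (adjusted p = 0.205), neither called although the groups did not overlap. MYBup exceeded wt by 0.47 (SE 0.16, adjusted p = 0.0307), a call that ended in 5 of 12 left-out libraries (adjusted p of up to 0.0950): MYBup replicates 1, 2 and 3 and wt replicates 1 and 2. Neighbours in the order were not told apart (adjusted p = 0.634, 0.179 and 0.686).

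Stat3 (ENSMUSG00000004040, chromosome 11, 100885098 to 100939540, minus strand) encodes the transcription factor that these receptors activate. Its level was 40.4, 36.8 and 44.6 CPM in mock, 48.1, 51.4 and 52.5 in MYBup, 46.9, 45.6 and 55.0 in wt and 48.7, 57.5 and 58.0 in lung3. The mock libraries were the lowest and the other groups overlapped. Stat3 rose by 0.32 on the log2 scale in MYBup against mock (SE 0.10, adjusted p = 0.0334) and was lower in mock than in wt (-0.28, SE 0.10, adjusted p = 0.0476). MYBup and wt were not told apart (0.04, adjusted p = 0.757), nor were lung3 and MYBup (0.11, adjusted p = 0.398) or lung3 and wt (0.15, adjusted p = 0.422). The call against mock ended without mock replicate 1 or 2 or MYBup replicate 2 or 3 (adjusted p of up to 0.114), and the one in mock against wt ended in 14 of 20 other settings (up to 0.201). Transcript level says nothing of phosphorylation. Exons of Stat3 share 72 bases with those of Stat5a on the opposite strand.

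Socs3 (ENSMUSG00000053113, chromosome 11, 117966079 to 117970047, minus strand), the feedback inhibitor gene, separated the lines that carried a plasmid from those that did not. It stood at 20.4, 26.6 and 18.2 CPM in mock and 25.8, 22.0 and 22.6 in MYBup. In wt it was at 10.3, 9.87 and 12.8 CPM and in lung3 at 13.7, 11.5 and 12.9. Every plasmid-bearing library lay above every untransfected one. How many of all genes split the libraries in this way was not counted. In mock and in MYBup against wt 35.9% and 38.2% of all tested genes were called. Mock exceeded wt by 0.98 (SE 0.14, adjusted p = 0.000237) and MYBup exceeded wt by 1.09 (SE 0.14, adjusted p = 0.000101), 2 comparisons that share the wt libraries, and both were called in all 20 other settings. MYBup and mock were not told apart (0.12, adjusted p = 0.583), nor were lung3 and wt (0.22, adjusted p = 0.452). In the order of levels mock exceeded lung3 (adjusted p = 0.0011).

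The plasmid-bearing lines differed from wt in other members too. In mock against wt 3 of the 9 tested genes rose (Csf2, Csf3 and Socs3) and Stat3 fell, where 18.0% of all tested genes rose and 17.9% fell (35.9% in either direction). Without mock replicate 1 or 2 or any wt replicate the count was 2. In MYBup against wt 4 rose (Csf1, Lifr, Osmr and Socs3) and 3 fell (Csf3, Lif and Il6st), where 19.4% and 18.7% of all tested genes did (38.2% in all). The count was 4 without MYBup replicate 1 or wt replicate 1. The median log2 fold change of the 9 was 0.16 in mock and 0.42 in MYBup against wt, beside -0.0047 and 0.00037 over all tested genes. The fibroblast marker sum was also higher in mock and MYBup than in wt. It was carried by Pdgfra, at 40.9 ± 6.66 CPM in mock, 45.1 ± 5.58 in MYBup and 26.6 ± 4.50 in wt. In these groups Dcn had 1, 2 and 1 counts, Col1a1 had 12, 0 and 7, and Lum had 0. The part of this sum in these differences was not tested. Lung3 set against the plasmid-bearing lines differs in more than passage: against mock 4 members were called (Csf1, Lif and Stat3 higher, Socs3 lower), with 44.9% of all tested genes, and against MYBup 6 (Csf2, Csf3, Lif and Il6st higher, Lifr and Socs3 lower), with 48.8%.

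Scaled by exon length as FPKM (reads per kilobase of exon, relative to library size), so that genes can be compared, the ligand genes Csf1, Csf3 and Lif ranked among the most abundant members. In wt cells Csf1 stood at 43.1 ± 3.01 FPKM, Csf3 at 16.5 ± 2.44, Il6st at 14.5 ± 0.240 and Lif at 13.9 ± 1.89. Stat3 followed at 5.16 ± 0.538 FPKM and Socs3 at 3.804 ± 0.546, whereas Csf2, Osmr, Lifr and Il6 were below 1. Lifr and Osmr were scarce beside Il6st: in MYBup cells, where Lifr was highest, it stood at 0.558 ± 0.0789 FPKM beside 0.740 ± 0.0301 for Osmr and 10.9 ± 1.60 for Il6st. In lung3 cells Csf3 reached 49.0 ± 17.8 FPKM and was second to Csf1 at 62.9 ± 1.82, and in MYBup it was at 7.42 ± 0.886, below Il6st and Socs3 (8.12 ± 0.707).

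**Figure D3:**
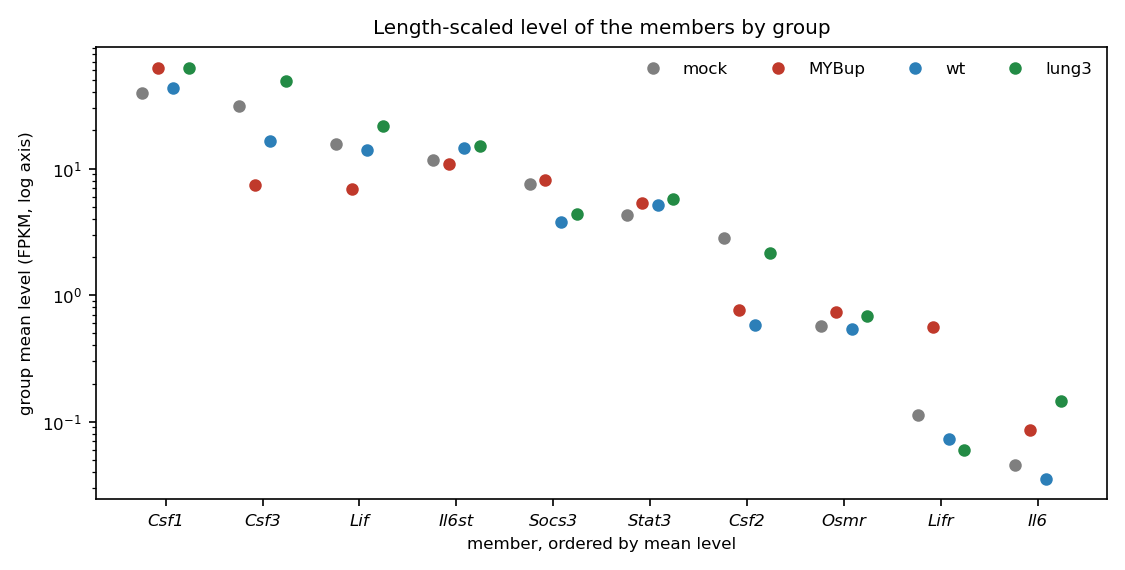
Group mean level of the 10 genes in FPKM (log axis), ordered by their mean over the groups and coloured by group. Csf1 lies between 39.3 and 62.9 FPKM in all groups, Lifr is at 0.558 in MYBup and at most 0.113 in the others, and Il6 is at most 0.146.

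The receptors for the colony-stimulating factors themselves were not detected or close to it. In the 12 libraries together Csf3r and Csf2ra had 0 counts, which at this depth allows up to 0.0151 CPM. Csf1r, whose product binds M-CSF, had 5, 1, 9 and 5 counts in mock, MYBup, wt and lung3, and the shared chain gene Csf2rb had 5, 7, 2 and 1. Exons of Csf1r share 873 bases with those of Hmgxb3 on the opposite strand, so some of its counts may be reads of Hmgxb3. Of 12 other receptor genes of both families 4 were tested.

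In MYBup against mock all 4 tested receptor genes of that list were called, 3 higher and 1 lower, where 26.9% of all tested genes were called. Il11ra1, Il27ra and Cntfr, at 26, 9 and 25 counts in mock, passed the filter through groups in which they were higher. The share of the 4 is thus no fair match for that of all genes. Il6ra, the IL-6 receptor gene, rose from 20.9 ± 2.14 CPM in mock to 29.9 ± 3.21 in MYBup (log2 fold change 0.51, adjusted p = 0.00319). Il11ra1 (2.39) and Il27ra (2.36), receptor genes for interleukins 11 and 27, were low in mock, at 0.509 and 0.182 CPM, and were not called in MYBup against wt (0.58 and 0.63, adjusted p = 0.191 and 0.222). Cntfr, the ciliary neurotrophic factor receptor gene, had 25 counts in mock, 109 in wt, 89 in lung3 and 0 in MYBup. Set against 3 counts summed over the MYBup libraries, it would be 7.27-fold lower in MYBup than in mock and 23.5-fold lower than in wt. The lower ends of the exact 95% intervals, which cover counting error only, were 5.49-fold and 18.8-fold. In mock against wt Il11ra1, Cntfr and Il27ra all fell (log2 fold change -1.81, -1.68 and -1.73), with the same limit from the filter. Il11ra1 has a near-identical copy, Il11ra2, listed at 0. How reads that match both were counted is not given, so the values of Il11ra1 are uncertain. The median log2 fold change of the 4 was 1.44 in MYBup against mock, also with Cntfr at its bound, and 0 of the 4 were called in lung3 against wt by edgeR, where 5.36% of all tested genes were.

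Of 12 other ligand genes of the families 6 were tested, while Il3, Osm, Il27 and Il31 had 0 counts in all libraries. In MYBup against mock 3 rose and 2 fell, with a median of 0.36, beside 26.9% of all tested genes called. Among those that rose were Clcf1, which encodes a cardiotrophin-like cytokine (log2 fold change 0.30, adjusted p = 0.0368), and Il34, which encodes another ligand of the M-CSF receptor (0.57, adjusted p = 0.00696). Il11 (-1.35, adjusted p = 0.015) and the cardiotrophin gene Ctf1 (-0.58, adjusted p = 0.0383) fell, and Ctf1 shares 87 exon bases with Ctf2 on the opposite strand. Il11 was low, at 77 counts in mock and 27 in MYBup, and was not called in MYBup against wt (-0.47, edgeR adjusted p = 0.356). Clcf1 was at 36.6 ± 2.10 CPM in mock, 45.1 ± 2.06 in MYBup, 29.2 ± 2.40 in wt and 20.2 ± 2.81 in lung3, and it was the member of this list called in lung3 against wt (-0.53, adjusted p = 0.0111; median of the 6 -0.05; 5.36% of all tested genes called). Clcf1 thus went the opposite way to Csf3 and Lif in both comparisons. Its exons share 311 bases with those of AC109138.7 on the same strand. In mock against wt 3 rose, among them Il11 (0.88) and Clcf1 (0.32), and 0 fell, beside 35.9% of all tested genes called. In MYBup against wt 3 rose, among them Clcf1 (0.63) and Il34 (0.60), and 0 fell, beside 38.2%.

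Of 23 genes of kinases, other STATs and inhibitors 22 were tested. In MYBup against mock 3 rose, among them Jak3 (0.89), which shares 404 exon bases with Insl3, and Pias3 (0.46), a STAT3 inhibitor gene, and 3 fell, namely the phosphatase gene Ptpn6 (-0.68) and the SOCS family genes Socs6 (-0.56) and Socs7 (-0.49). The share called, 27.3%, lay near the 26.9% of all tested genes. In lung3 against wt the phosphatase gene Ptpn1 was called alone (-0.33, edgeR adjusted p = 0.0469), or 4.55% beside 5.36% of all tested genes. Against wt, 5 rose and 2 fell in mock, with Jak2 at 0.49, Tyk2 at 0.45 and Jak3 at -0.90. This was 31.8% beside 35.9% of all tested genes. In MYBup against wt 7 rose and 5 fell, or 54.5% beside 38.2%. The SOCS genes went both ways there. Socs1 (1.68, edgeR adjusted p = 0.00139) and Socs2 (1.06, adjusted p = 0.00231) were high along with Socs3. Socs6 (-0.71, adjusted p = 0.000101) and Socs7 (-0.77, adjusted p = 0.000192) were lower. List medians lay between -0.10 and 0.14 in these 4 comparisons.

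Reported STAT3 target genes numbered 28, of which 27 were in the table and 22 were tested. In MYBup against mock 2 rose and 7 fell (median -0.14), a share of 40.9% beside 26.9% of all tested genes. Lcn2, the gene of the iron-binding protein lipocalin 2, fell from 20.6 ± 15.9 to 0.675 ± 0.174 CPM (-4.97, adjusted p = 0.00163). Icam1 (-2.57), Vegfa (-0.63) and Klf4 (-0.56) also fell, whereas the immediate-early gene Fos (1.18, adjusted p = 0.0136) and the survival gene Mcl1 (0.42) rose. Icam1 was low, at 76 counts in mock and 11 in MYBup, and shares 511 exon bases with the antisense gene Gm47079. In lung3 against wt Lcn2 (3.89, adjusted p = 0.00795), the interleukin 4 receptor gene Il4ra (0.58) and Nfil3 (0.52) rose and 0 fell (median 0.14), or 13.6% beside 5.36%. In mock against wt 10 rose and 3 fell (median 0.24), or 59.1% beside 35.9%, led by Lcn2 (3.38), Klf4 (0.98) and Fos (0.93). In MYBup against wt 5 rose and 3 fell (median 0.0054), with Fos at 2.10 and Icam1 at -2.80, and the share of 36.4% lay near the 38.2% of all tested genes. The acute-phase genes Lrg1 and Fgg had 0 counts in all libraries.

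**Figure D4:**
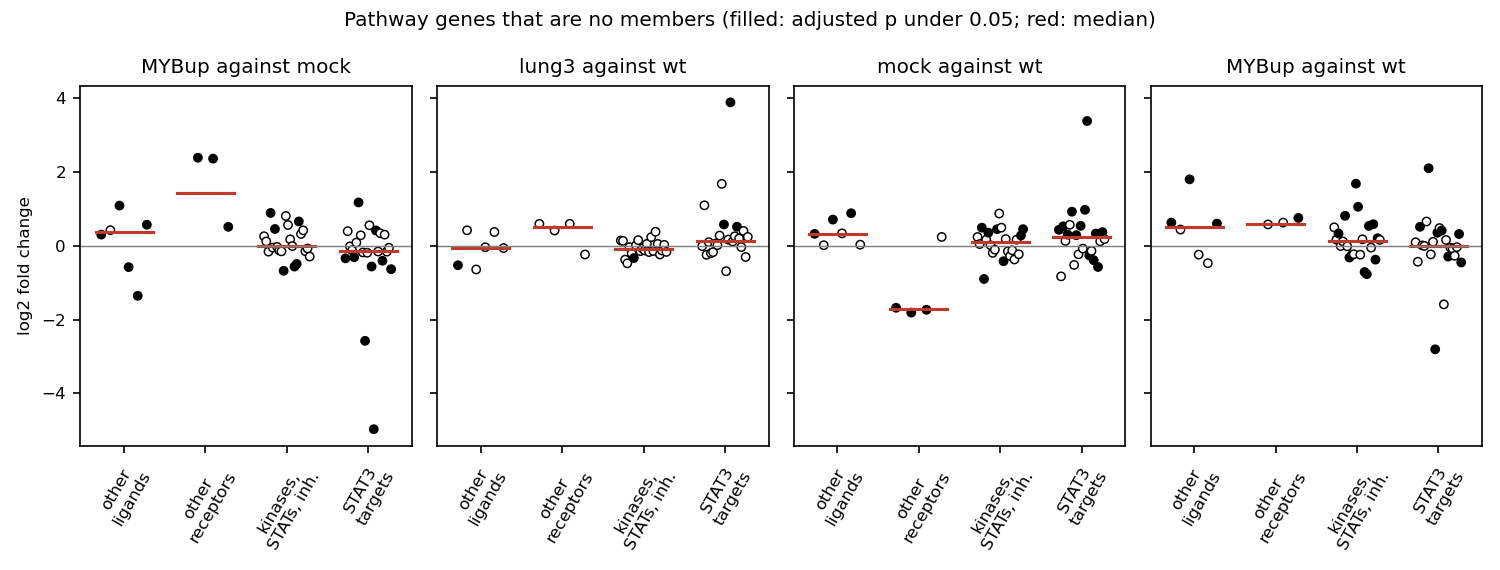
Log2 fold change (vertical axis) of each tested gene in the 4 lists of pathway genes, filled where the adjusted p is under 0.05, with the list median in red, in 4 comparisons. Cntfr, with 0 counts in MYBup, is not drawn in the panels with MYBup. In lung3 against wt 5 of the 54 genes are filled, where 5.36% of all tested genes were called, and Lcn2 lies highest at 3.89.

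Which genes were most like the members was described by Pearson's r of log2 CPM over the 12 libraries. The libraries share the 4 groups, so these values hold differences between groups as well as between libraries of a group. The genes were picked by these same values, so likeness in single libraries, here and below, is partly built in. The genes most like Csf3 were Cxcl5, a neutrophil chemokine gene (r = 0.984), Nfkbiz, an NF-kB regulator gene (0.981), and Micall2 (0.970). Cxcl5 shared the low replicates, at 186, 195 and 39.0 CPM in mock and 770, 878 and 183 in lung3. Nfkbiz was at 60.01, 54.5 and 26.6 CPM in mock and 63.6, 65.1 and 35.3 in lung3. For Lif they were Birc3, an apoptosis inhibitor gene (0.973), Nabp1 (0.968) and Cldn12 (0.967), none of which was low in mock replicate 3.

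The genes most like Lifr were Fkbp14 (0.975), Ppp1r13b (0.972) and Lipa, the lysosomal lipase gene (0.963). Csf1 was followed by Plaa (0.959), Rab33b (0.940) and Pbx2 (0.937), and Socs3 by Carhsp1 (0.974), Pnrc2 (0.974) and Tkfc (0.970). For Il6st they were Ep300 (0.984), Akap13 (0.984) and Tln2 (0.981), and for Stat3 D16Ertd472e (0.947), Fam83b (0.930) and Slc30a7 (0.928). Within their groups, Il6st and Ep300 were both lowest in mock replicate 2 (96.6 and 43.6 CPM) and in MYBup replicate 1 (101 and 48.8 CPM). Osmr had the weakest likeness, among them to Cda (0.861) and Ptgs1 (0.854). Between members, r was 0.831 for Csf3 and Lif, -0.938 for Lif and Lifr and -0.845 for Il6st and Socs3.

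**Figure D5:**
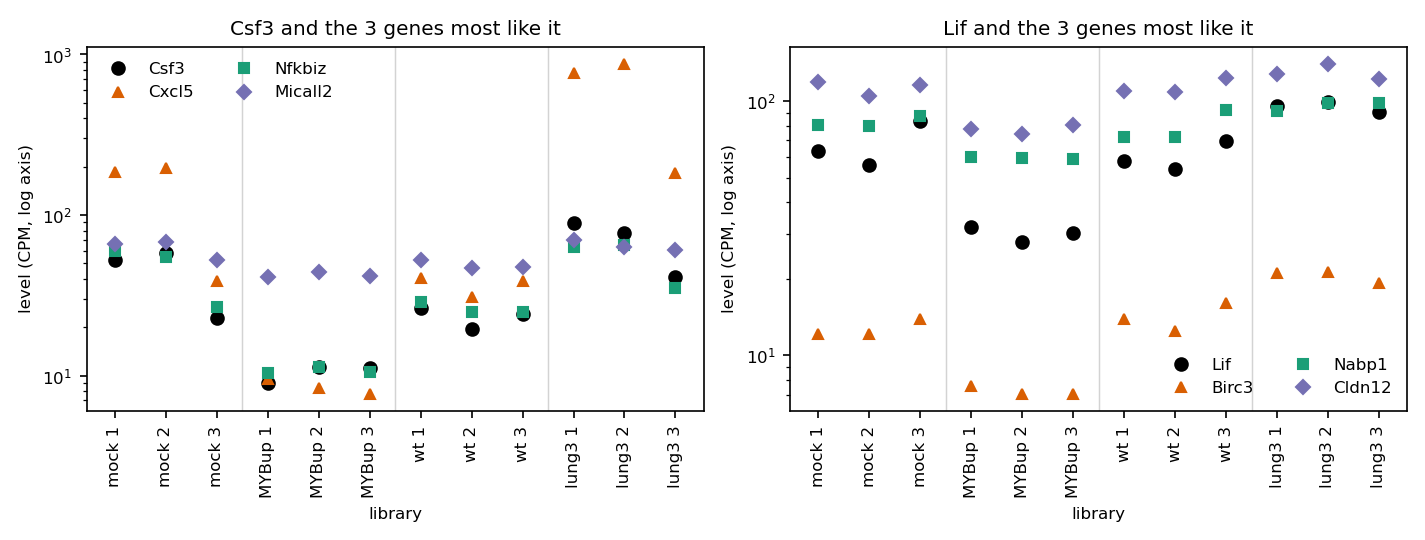
Level in CPM (log axes) by library for Csf3 (left) and Lif (right), in black, and the 3 genes most like each. Csf3, Cxcl5 and Nfkbiz are lower in replicate 3 than in replicates 1 and 2 of mock and lung3, whereas Lif in mock replicate 3 is at 83.4 CPM, above 63.6 and 55.9.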

How the data were processed

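RNA of 12 libraries was isolated with a column kit and made into Illumina TruSeq libraries, per the labels' protocols. The authors deposited unnormalised read counts per gene. STAR, edgeR and GRCm38 are named in the submitters' processing notes. Not given in the sources used here are versions, counter, annotation and strandedness. Deposited counts with more than 4 digits had been rounded, keeping 4 significant digits, and 0 columns were left out. Symbols matched 22570 of 22880 features, with GENCODE M21 models on GRCm38, 1-based coordinates and exon union lengths for FPKM.

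Tests used R 4.3.3 and edgeR 4.0.16 (quasi-likelihood test after TMM scaling and filterByExpr; 1 fit of all 12 libraries, group as the term), adjusted by Benjamini-Hochberg over 11291 genes. SE is the absolute log2 fold change over the square root of F. The alternatives were DESeq2 1.42.0, limma voom 3.58.1, other scaling, no filter, 6 libraries, a replicate block and left-out libraries. Scripts were tested on simulated data. The members and lists were chosen with earlier results of these data known. All members were named, with up to 6 called genes a list and comparison, and for each called member of at least 5 CPM in a group the 3 genes highest in r among those averaging 1 or more in log2 CPM. A few genes that this rule names are not reported here. Replicates differed by more than sampling noise (chi-square per gene 2.30 to 37.2).

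The same-number correlations of deviations from group means were 0.300, 0.254 and 0.306 for lung3 and wt, against -0.218 to -0.0587 for unlike numbers, so by this check the numbers pair these libraries. The reported fit has no block, and for the members blocked values are given where they differ in a call. Blocked calls were not made for the pathway genes, so their calls in lung3 against wt leave this pairing out. For MYBup and mock the same-number correlations were -0.167, -0.424 and 0.324.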

Additional observations from a re-analysis of the deposited data

How the results depend on the processing

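Over the 4 comparisons, no called log2 fold change of a member changed sign under any of the 20 alternatives, which covered scaling, filter, tool, libraries in the fit, blocks and left-out libraries. Leaving out each library gave 4 to 6 members called in MYBup against mock (6 with all libraries), 1 to 4 in lung3 against wt (3), 2 to 6 in mock against wt (4) and 4 to 7 in MYBup against wt (7). For the pathway genes it gave 18 to 26 (24), 3 to 8 (5), 17 to 27 (26; 17 without wt replicate 3) and 19 to 26 (25). In lung3 against wt 3 were called without wt replicate 1 or 2 or any lung3 replicate and 8 without wt replicate 3, and DESeq2 called 9. Values that were not called and crossed 0 were those of Osmr in mock against wt (-0.065 to 0.24 over the left-out libraries), Il6st in MYBup against mock (-0.29 to 0.036) and in lung3 against wt (-0.038 to 0.15), Lif in mock against wt (-0.021 to 0.28), and Csf2 (-0.0078 to 1.95) and Stat3 (-0.0050 to 0.13) in MYBup against wt. Without mock replicate 3 and lung3 replicate 3 together, Il6st was at 0.033 in MYBup against mock and -0.038 in lung3 against wt, and Lif at -0.021 in mock against wt. The cause was not tested.

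Blocking by replicate number over all 12 libraries gave 6, 3, 4 and 7 called members in the order above. On the 6 libraries of each comparison, a setting added after seeing the data, the block gave 5, 4, 3 and 7: Csf2 was gained in lung3 against wt, and Stat3 was lost in MYBup against mock (adjusted p = 0.108). Stat3 was also lost in mock against wt (0.0552), where the 6 libraries with no block had lost it too (0.0956) and the block over 12 kept it (0.0287). The block changed no other member's call. Outside lung3 and wt the libraries share only a number. For Csf2, Lifr and Il6, and for pathway genes such as Il11 and Icam1, the low counts limit what can be told apart.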
